A study of Mus musculus with 9 samples.

Results

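Calcoco2, Prph, Ackr3 and Fbp1 were 4 genes whose transcripts rose in mouse F9 cells after both retinoic acid (RA) and trichostatin A (TSA). F9 is an established embryonal carcinoma line, a tumour-derived model of the early embryo, and its cells move toward endoderm when given RA. The genes were represented by 5 of the 12422 non-control probe sets on the array, 2 for Prph and 1 for each of the others. They had been selected on their RA and TSA ratios, for a rise over vehicle in both, so these rises are described here without a test. The comparison that is tested is the direct difference between the RA and the TSA arrays. The choice was not made on that difference, but it used the same arrays. Asking for a rise in both treatments can leave out genes with a large difference, so the test is not independent of the choice.

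RNA was measured on 9 Affymetrix oligonucleotide arrays, with 3 arrays for each of 3 groups of F9 cells, all exposed for 24 h. The groups were vehicle (medium with ethanol), RA at 0.5 µM and TSA at 0.07 µM. The labels give no other agent and no genetic change, and do not say whether the solvent of TSA was ethanol. Nothing in them tells if the 3 arrays of a group came from different dishes, so p-values cover array-to-array spread that might be purely technical. Each value is the authors' linear ratio to the mean of the 3 vehicle arrays for that probe set. A ratio holds no brightness, so neither the level of one gene against another nor the presence of F9 marker genes can be read from it.

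RA is a vitamin A derivative that enters the nucleus and acts through retinoid receptors bound at target genes, where it replaces corepressor complexes that carry histone deacetylases with coactivators. TSA inhibits histone deacetylases directly and so raises histone acetylation. Genes kept low by deacetylase-containing complexes can therefore respond to either compound. Whether the members, which come from unrelated pathways, responded in this way was not tested. Calcoco2, also called NDP52, is known as a receptor of selective autophagy that links cargo to the autophagosome. Prph encodes peripherin, an intermediate filament protein of peripheral neurons. Ackr3 (CXCR7) is an atypical chemokine receptor that binds Cxcl12 and recruits arrestins without signalling through G proteins in the usual way. Fbp1 is fructose bisphosphatase, an enzyme of gluconeogenesis in liver and kidney.

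Promoter windows are shown because the members rose together and because Fbp2, the gene beside Fbp1, moved with it. RefSeq windows on GRCm38.p6 were matched by symbol for 3 of the 4 members, Prph, Ackr3 and Fbp1, and for Fbp2, each running from 250 bases before to 50 after the gene's start. They are printed 5′ to 3′ on the gene's strand, and capitals mark matches to the searched motifs on either strand. The motifs were the retinoid receptor half-site AGGTCA and its variants GGGTCA together with AGTTCA plus GGTTCA, direct repeats of any pair of them spaced by 1, 2 or 5 bases, the GC box GGGCGG, the CCAAT box and the TATA motif TATAAA. The windows lie at chr15:99054924-99055223, plus strand; chr1:90203730-90204029, plus strand; chr13:62888233-62888532, minus strand; and chr13:62858351-62858650, minus strand.
Prph: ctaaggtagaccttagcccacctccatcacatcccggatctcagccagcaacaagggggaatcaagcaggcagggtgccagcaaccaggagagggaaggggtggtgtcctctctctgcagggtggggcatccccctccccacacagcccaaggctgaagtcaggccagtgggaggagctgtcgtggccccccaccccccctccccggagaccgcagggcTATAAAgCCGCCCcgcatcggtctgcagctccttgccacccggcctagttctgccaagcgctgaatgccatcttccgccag
Ackr3: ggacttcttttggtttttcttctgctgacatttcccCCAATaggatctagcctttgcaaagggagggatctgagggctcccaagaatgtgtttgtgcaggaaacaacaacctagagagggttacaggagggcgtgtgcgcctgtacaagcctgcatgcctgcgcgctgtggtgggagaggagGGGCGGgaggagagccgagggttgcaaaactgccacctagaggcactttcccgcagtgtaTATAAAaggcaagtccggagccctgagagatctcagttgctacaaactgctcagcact
Fbp1: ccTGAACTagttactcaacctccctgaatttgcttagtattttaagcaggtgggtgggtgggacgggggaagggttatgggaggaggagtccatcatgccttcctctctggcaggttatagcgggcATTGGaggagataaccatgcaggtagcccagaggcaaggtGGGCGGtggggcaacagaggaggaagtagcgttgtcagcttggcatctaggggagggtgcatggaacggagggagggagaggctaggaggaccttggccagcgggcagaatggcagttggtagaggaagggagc
Fbp2: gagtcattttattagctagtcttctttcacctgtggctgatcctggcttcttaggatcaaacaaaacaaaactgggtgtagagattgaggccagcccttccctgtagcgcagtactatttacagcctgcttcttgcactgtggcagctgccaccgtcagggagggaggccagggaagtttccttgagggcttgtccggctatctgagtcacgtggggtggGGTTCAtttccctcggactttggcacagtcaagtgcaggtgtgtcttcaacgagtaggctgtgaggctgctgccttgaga

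The Prph, Ackr3 and Fbp1 windows each held 1 GC box match, which 35.7% of all 32851 windows of that table held. Prph and Ackr3 each held a TATAAA match, present in 13.6% of windows. The match began at -31 from the gene's start in Prph and at -8 in Ackr3. CCAAT was matched in Ackr3 and Fbp1 and in 37.4% of windows. A single half-site was found in Fbp1 (AGTTCA, minus strand) and in Fbp2 (GGTTCA, plus strand), where 43.7% of all windows held at least 1 half-site. No direct repeat was found in the 4 windows; the shares over all windows were 0.222%, 0.268% and 0.0974% for spacings of 1, 2 and 5 bases. These matches describe letters in short windows and are not evidence of binding.

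Some arrays stood apart in their controls. The median ratio of the 3 control probe sets for 18S rRNA was 2.40 on vehicle replicate 3, 0.961 on RA replicate 3 and 0.538 on vehicle replicate 1, against 0.0336 to 0.0730 on the other 6 arrays. For the 18 control probe sets of spiked-in RNAs, the median ratio was 0.822 to 1.23 on vehicle arrays, 0.413 to 1.03 on RA arrays and 0.563 to 0.726 on TSA arrays. Every TSA array thus lay below every vehicle array in these controls, and the part of this shift in the changes was not tested. Array medians over all non-control probe sets ran from 0.821 to 1.02, with no further scaling. The median change over all probe sets was -0.12 in RA and -0.17 in TSA on the log2 scale, and the changes given below are not corrected for these shifts. Among 10 markers of undifferentiated cells, 4 fell in RA and 3 in TSA, where 0.63% and 1.78% of all genes fell, and their median changes were -0.88 and -0.86. Their summed ratio was 8.51 to 11.0 on vehicle arrays, 4.36 to 4.76 on RA arrays and 5.80 to 6.29 on TSA arrays. No marker was listed at 0. In whole-culture RNA, fewer cells of a type and less RNA per cell cannot be told apart.

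Calcoco2 had the largest RA rise of the 4 genes. Its probe set, 95562_at, read 1.77, 0.558 and 0.674 on vehicle replicates 1, 2 and 3. In RA it read 26.5, 35.1 and 20.4, a mean of 27.3 ± 7.39 times the vehicle mean (SD, n = 3). In TSA it read 7.09, 15.5 and 9.29, a mean of 10.6 ± 4.38 (SD, n = 3). Both treated groups lay above every vehicle array, and every RA array lay above every TSA array. The vehicle arrays differed from each other by 3.17 times, with replicate 1 the highest. The fitted log2 changes were 4.85 (SE 0.460) in RA and 3.45 (SE 0.460) in TSA, the 5th and 36th highest of 12422 probe sets. Fold changes here and below are differences of log2(ratio + 0.05), a scale that understates changes of low values.

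Prph was the member with the tightest RA values. Its probe set 104751_at read 0.848, 0.901 and 1.25 on the vehicle arrays and 18.8, 21.2 and 19.6 on RA replicates 1, 2 and 3, a mean of 19.9 ± 1.20 in RA (SD, n = 3). The TSA arrays read 9.66, 21.2 and 13.0, with a mean of 14.6 ± 5.96 (SD, n = 3). TSA replicate 2 was level with the highest RA array, while TSA replicates 1 and 3 lay below all RA arrays, so the treated groups overlapped. The log2 changes were 4.27 (SE 0.298) in RA and 3.75 (SE 0.298) in TSA.

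The second Prph probe set, 161482_f_at, rose less. The suffix _f is Affymetrix's mark for a probe set whose probes can match several related sequences. It read 0.769, 0.790 and 1.44 in vehicle, 6.39, 5.18 and 4.49 in RA and 3.25, 7.60 and 3.60 in TSA. Mean ratios were 5.35 ± 0.963 in RA and 4.82 ± 2.42 in TSA (SD, n = 3 each). Its log2 changes of 2.41 in RA and 2.16 in TSA (SE 0.374 each) were smaller than those of the other probe set in both treatments. The probe sets shared the order of the TSA arrays, with replicate 2 highest, then 3, then 1. This order was not particular to Prph, as Calcoco2 and Ackr3 had it too, while Fbp1 did not.

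Ackr3, measured by 93430_at, read 1.43, 0.598 and 0.975 in vehicle. The RA arrays read 14.1, 12.4 and 4.27, a mean of 10.2 ± 5.23 (SD, n = 3), and the TSA arrays 3.82, 9.17 and 7.99, a mean of 6.99 ± 2.81 (SD, n = 3). All treated arrays exceeded all vehicle arrays, and the RA and TSA ranges overlapped. RA replicate 3, an array with a high 18S ratio, was the lowest RA array, and without it the log2 rise in RA was 3.74 instead of 3.20 (SE 0.536). The rise in TSA was 2.73 (SE 0.536). The part of the 18S difference in these values was not tested.

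Fbp1 was the only member of the 4 with a higher mean in TSA than in RA. Its probe set, 96918_at, read 0.976, 0.782 and 1.24 in vehicle and 10.5, 6.45 and 2.47 on RA replicates 1, 2 and 3, a mean of 6.49 ± 4.03 (SD, n = 3). The TSA arrays read 12.7, 10.7 and 9.67, a mean of 11.0 ± 1.56 (SD, n = 3). The RA arrays spanned 4.26 times and the TSA arrays 1.32 times, and RA replicate 1 lay inside the TSA range. RA replicate 3 was again the lowest RA array, as for Ackr3, Calcoco2 and Prph 161482_f_at. The log2 rises were 2.43 (SE 0.468) in RA and 3.42 (SE 0.468) in TSA, and without RA replicate 3 the RA rise was 3.01.

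**Figure D1:**
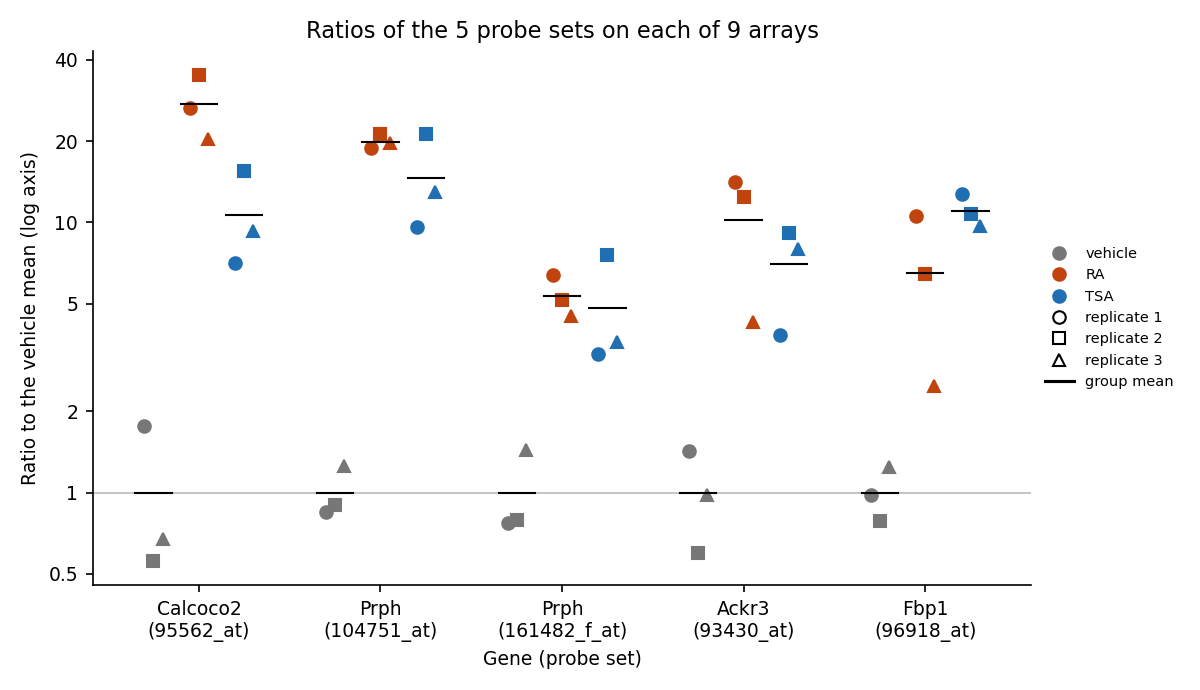
Ratio to the vehicle mean (log axis) of the 5 probe sets on the 9 arrays; colours are groups, marker shapes are replicate numbers and black bars are group means of 3 arrays. All treated arrays lie above all vehicle arrays, and RA and TSA separate only for Calcoco2. RA replicate 3 is the lowest RA array for every probe set except Prph 104751_at, with 4.27 for Ackr3 and 2.47 for Fbp1.

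All 5 probe sets had RA and TSA arrays above every vehicle array, as had 2.33% of all probe sets. They also passed as higher in both treatments in the fit over all probe sets (limma, Benjamini-Hochberg), as did 46 probe sets, 0.37% of the total. For RA alone 0.934% of probe sets passed as higher, and for TSA alone 2.21%. Both counts restate how the genes were picked. The choice named no minimum size, but it used these same rises, so the ranks that follow are description only. Ordered by the smaller of the pair of rises, Prph 104751_at stood 4th of 12422, Calcoco2 6th, Ackr3 8th, Fbp1 12th and Prph 161482_f_at 20th.

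**Figure D2:**
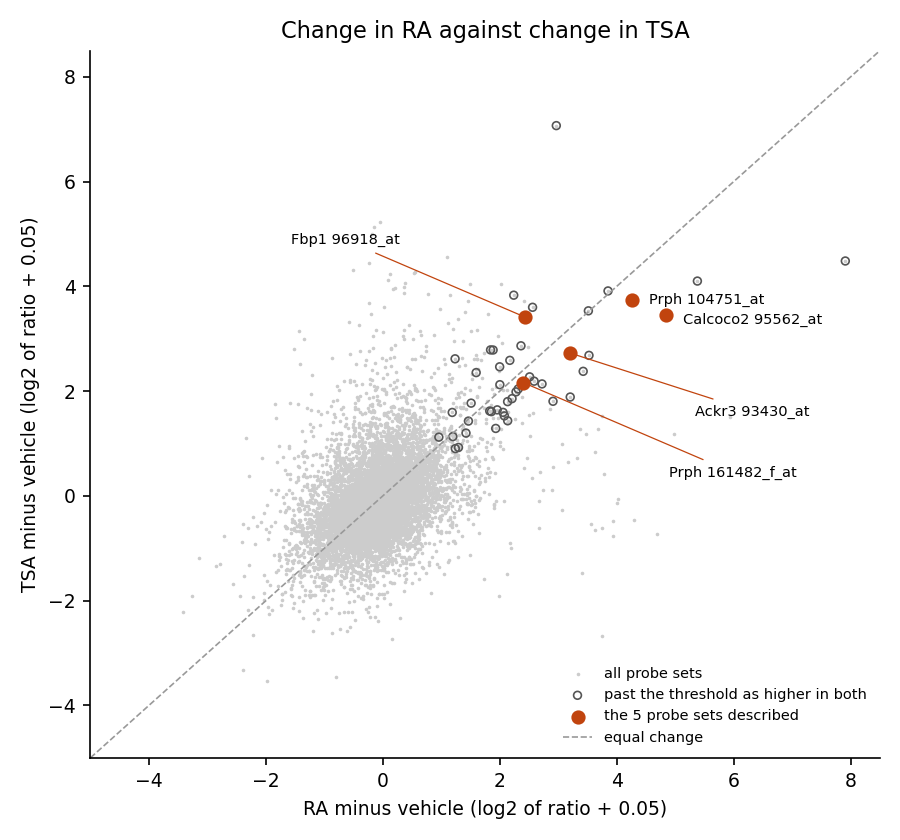
Log2 change in RA (x axis) against log2 change in TSA (y axis) for all probe sets (grey), those past the threshold as higher in both (open circles) and the 5 described (filled), with a dashed line of equal change. Fbp1 lies above the line and the other 4 probe sets lie below it; the axes share the vehicle arrays, so the slope of the cloud is not a result.

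For none of the 4 genes did the sizes of the RA and TSA rises differ past the threshold. In the fit on all 9 arrays, 0 of the 5 probe sets had an adjusted p under 0.05 for RA against TSA (limma, Benjamini-Hochberg over 12422 probe sets), where 3.91% of all probe sets did (1.7% higher in RA and 2.21% higher in TSA). At an unadjusted p under 0.05, 1 of the 5 passed, Calcoco2, against 17.1% of all probe sets. The members were picked for rises in both treatments on these same arrays, so the shares over all probe sets are not an independent yardstick. The doses were 0.5 µM and 0.07 µM, so the difference is between these treatments and not between the compounds at a matched dose.

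Calcoco2 was 2.64-fold higher in RA than in TSA, a log2 difference of 1.40 with a 95% interval of 0.35 to 2.45. Its adjusted p was 0.161 by limma (unadjusted p = 0.0148), and the exact 2-sided permutation test over arrays gave 0.1, the smallest p that 3 arrays against 3 allow. The arrays of RA and TSA did not overlap for Calcoco2, as for 27.3% of all probe sets. Averaging probe sets within genes and testing over 8251 genes left the adjusted p at 0.132 by limma, and 0 of the 4 genes passed where 4.99% of all genes did.

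The Prph difference was smaller. For 104751_at it was 0.52 on the log2 scale (95% interval -0.16 to 1.20), and for 161482_f_at 0.24 (-0.61 to 1.10). Adjusted p-values were 0.445 and 0.816 (limma, Benjamini-Hochberg). With both probe sets averaged, the difference was 0.38 (-0.35 to 1.11).

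Ackr3 was higher in RA by 0.47 on the log2 scale, with a 95% interval of -0.75 to 1.69 and an adjusted p of 0.743 (limma). Without RA replicate 3 the difference was 1.01 and the adjusted p 0.371, by the same test. For Fbp1, RA minus TSA was -0.98 (95% interval -2.05 to 0.08), with an adjusted p of 0.334 (limma). Without RA replicate 3 it was -0.41, with an adjusted p of 0.624 by the same test. The intervals for Prph, Ackr3 and Fbp1 include 0 and also differences of about a doubling, so they do not show that both treatments acted alike.

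In the order of mean levels, vehicle was lowest for each member. TSA came next and RA highest for Calcoco2, Prph and Ackr3, and the order of the treatments was the other way for Fbp1. The neighbours RA and TSA in that order overlapped in array values for Prph, Ackr3 and Fbp1.

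**Figure D3:**
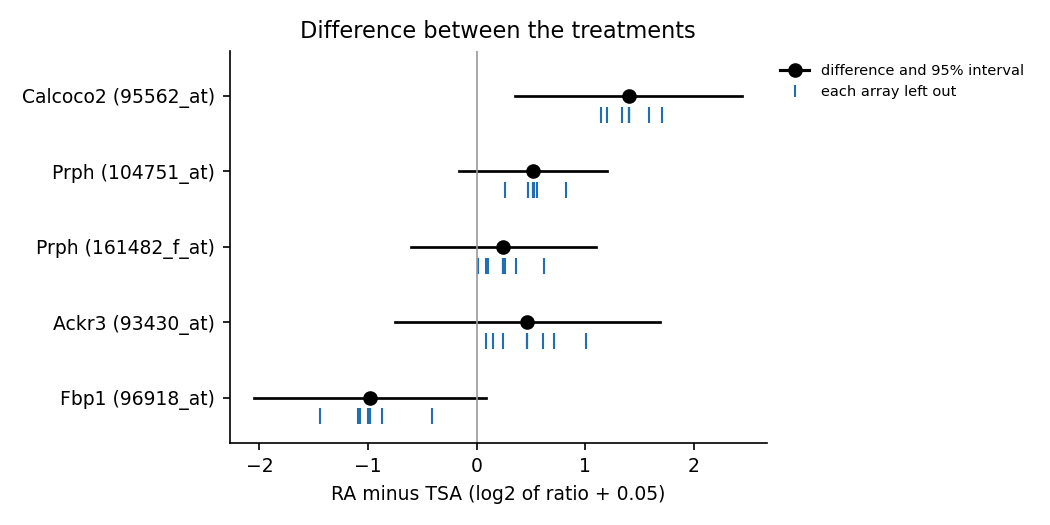
RA minus TSA difference (log2 of ratio + 0.05) of the 5 probe sets, with its 95% interval from the fit on 9 arrays (black) and the values when each array is left out (blue ticks). The interval lies wholly above 0 only for Calcoco2 (0.35 to 2.45, before adjustment), and the Fbp1 value moves from -0.98 to -0.41 without RA replicate 3.

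Of the 46 probe sets past the threshold as higher in both treatments, 5 differed between the treatments in the same fit (limma, adjusted p under 0.05), 2 higher in RA and 3 higher in TSA. The median RA minus TSA difference over the 46 was 0.25 on the log2 scale. Calcoco2 at 1.40, Ackr3 at 0.47 and Prph 104751_at at 0.52 lay above it, Prph 161482_f_at at 0.24 lay just below it, and Fbp1 at -0.98 lay further below.

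Other genes with a similar pattern were found by the root mean square difference of log2 values over the 9 arrays, among 8251 genes, as a description of these arrays. Closest to Calcoco2 was Crabp2, which carries RA within cells (0.739, with rises of 5.38 in RA and 4.10 in TSA), then Sema3e, a secreted guidance protein (0.949), and Cdx1, a homeobox factor and RA target (0.958). Prph entered as the average of its 2 probe sets, with rises of 3.34 in RA and 2.95 in TSA. These lay between the rises of the 2 probe sets. Closest to Prph were the homeobox gene Msx2 (0.511, with rises of 3.52 and 3.53), Sema3e (0.538) and Ackr3 (0.582). For Ackr3 they were Prph, Sema3e (0.670) and Ptpre, a tyrosine phosphatase (0.722, with rises of 2.91 and 1.81). For Fbp1 they were Plat, the tissue plasminogen activator (0.672, with rises of 2.56 and 3.60), Pkp3, a desmosomal plaque protein (0.748), and Ackr3 (0.765). Pkp3 differed from Fbp1 in one respect: its change of 1.28 in RA did not pass while its 3.37 in TSA did, and RA minus TSA was -2.09 (limma adjusted p = 0.00797).

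The measured genes nearest each member on its chromosome were compared next, taking 5 on each side in RefSeq order, 40 genes in all. Unmeasured genes lie between some of them and the member. Counted in protein-coding genes, Sag was at position -25 from Ackr3, Ctla2a at -23 from Fbp1 and Smarcd1 at 19 from Prph. Of the 40 genes, 4 rose in RA and none fell, where 1.19% of 8251 genes rose and 0.63% fell (limma, Benjamini-Hochberg). In TSA 1 rose and none fell, where 2.71% of genes rose and 1.78% fell. The 4 were Hoxb9, Hoxb7 and Hoxb6 beside Calcoco2, and Fbp2 beside Fbp1. As gene averages, none of the 20 neighbours of Prph and Ackr3 was called in either treatment; these averages ran from -0.40 to 0.83 in RA and from -0.42 to 1.10 in TSA. The probe sets of Dnajb3, an Ackr3 neighbour that encodes a DnaJ-type chaperone, disagreed. One of them, with the suffix _f, read 2.70, 3.70 and 3.15 on the TSA arrays against 1.04, 1.23 and 0.725 in vehicle. It passed by itself in TSA (log2 change 1.64, limma adjusted p = 0.0112 over all probe sets), and its RA minus TSA difference of -1.22 passed too (adjusted p = 0.0278). The other changed by -0.47 in TSA and did not pass.

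Calcoco2 lies on chromosome 11 at the edge of the Hoxb cluster, a row of homeobox genes that pattern the body axis and respond to RA. On the cluster side, Hoxb9 read 20.5, 14.5 and 5.87 on the RA arrays against 0.506, 1.26 and 1.23 in vehicle, a log2 change of 3.63 (SE 0.527). Hoxb6 changed by 1.90 and Hoxb7 by 0.99 in RA, while Hoxb13 and Hoxb8, also measured, were at 0.10 each and did not pass. Hoxb9 in TSA read 0.916, 0.393 and 0.517, and the TSA changes of Hoxb9, Hoxb7 and Hoxb6 were -0.65, 0.02 and -0.18, none past the threshold.

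RA exceeded TSA for Hoxb9 by 4.28, for Hoxb6 by 2.08 and for Hoxb7 by 0.97, with adjusted p of 0.00327, 0.00935 and 0.0250 (limma, Benjamini-Hochberg), where 2.21% of genes were higher in RA than in TSA. B4galnt2, a glycosyltransferase on the other side of Calcoco2, also differed (1.33, adjusted p = 0.0285), although neither of its changes from vehicle passed. The RA minus TSA difference of Calcoco2 itself was 1.40 and did not pass; it was larger than those of Hoxb7 and B4galnt2, and whether it differs from any of the 4 was not tested. The measured genes between Calcoco2 and B4galnt2, which were Atp5g1, Ube2z, Gip and Igf2bp1, changed by -0.37 to 0.10 in RA and -0.52 to -0.03 in TSA, and none passed. Leaving out 1 array in turn, the RA rise of Hoxb9 held in 7 of 9 fits (not without RA replicates 1 or 2), that of Hoxb6 in 4 and that of Hoxb7 in 1, the fit without vehicle replicate 3. The RA minus TSA calls of Hoxb9 and Hoxb6 held in 9 of 9, and those of Hoxb7 and B4galnt2 in 3 of 9.

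Fbp1 and Fbp2 are adjacent genes on chromosome 13 and encode related enzymes, with Fbp2 known as the muscle form. Fbp2 read 0.762, 1.07 and 1.16 in vehicle, 5.38, 5.32 and 3.72 in RA and 3.36, 4.17 and 3.62 in TSA. Its treated arrays all lay above the vehicle arrays, and the RA and TSA arrays were close. It rose by 2.21 in RA and 1.86 in TSA on the log2 scale (SE 0.231 each), with adjusted p of 0.00249 and 0.00525 (limma, Benjamini-Hochberg), and both calls held in 9 of 9 fits that leave out 1 array. RA minus TSA was 0.35 (adjusted p = 0.472), opposite in sign to Fbp1. Probe sequences were not used here, so cross-hybridisation between these paralogs was not tested. On the far side of Fbp1, Aopep changed by -0.05 and -0.02 in RA and TSA and did not pass.

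**Figure D4:**
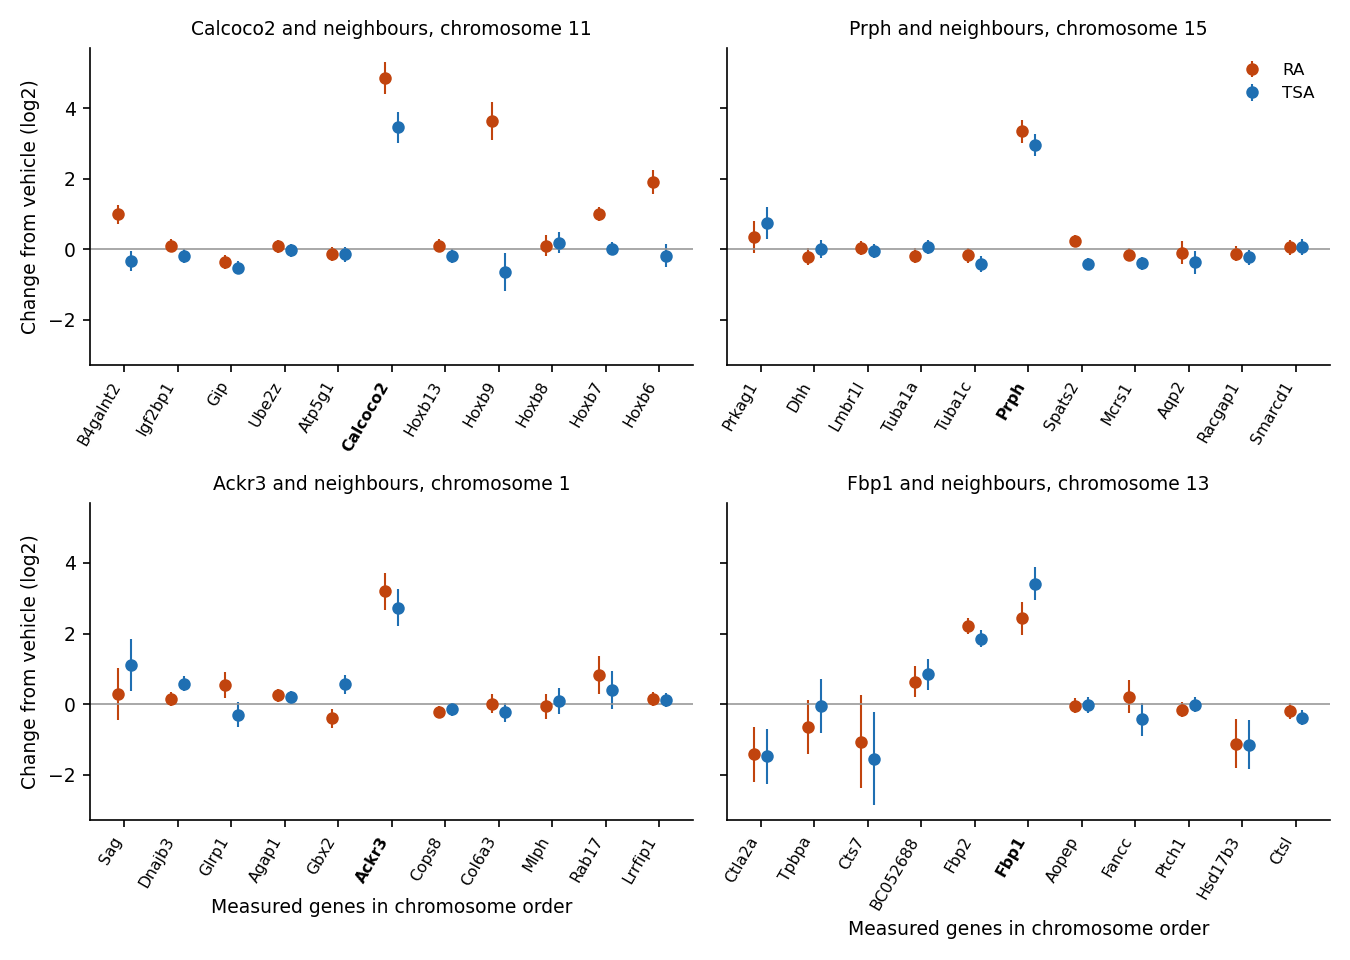
Log2 change from vehicle in RA and TSA (mean difference ± SE, 3 arrays a group) of each member (bold) and the 5 measured genes on each side, in chromosome order. Hoxb9, Hoxb7 and Hoxb6 beside Calcoco2 are raised in RA, Fbp2 beside Fbp1 is raised in both, and the gene averages of the neighbours of Prph and Ackr3 lie between -0.42 and 1.10, with the disagreeing probe sets of Dnajb3 (1.64 and -0.47 in TSA) averaged.

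Genes of the members' pathways were called in RA at about the share of all genes. Over 5 lists of 153 measured genes, the members left out, 3 changed in RA and 11 in TSA (limma, Benjamini-Hochberg), 1.96% and 7.19%, where 1.82% and 4.5% of all genes changed. Between RA and TSA 13 differed (8.5%), where 4.99% of all genes did, 2.21% higher in RA and 2.79% higher in TSA. The median change of all genes was -0.12 in RA and -0.15 in TSA.

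Of 27 measured genes of selective autophagy and its Atg8 system, none changed in RA, with a median of -0.09. In TSA 1 rose and 1 fell, with a median of -0.03. Gabarapl1, an Atg8 protein that cargo receptors bind, rose by 1.31 in TSA (2.77, 2.86 and 2.02 on the TSA arrays against 0.874 to 1.25 in vehicle), and Bnip3, a mitochondrial autophagy receptor, fell by 1.66. These calls held in 5 and 3 of 9 fits that leave out 1 array; Gabarapl1 was lost without vehicle replicates 1 or 2 or TSA replicates 1 or 2. Other cargo receptors gave values near 0: Sqstm1 was at 0.14 in RA and 0.18 in TSA, and Tax1bp1, a relative of Calcoco2, at -0.25 and -0.03. None of these passed.

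Of 23 measured intermediate filament and linked genes, none changed in RA (median -0.25), and 2 rose in TSA (median 0.03). Compared directly, 5 of the 23 were called lower in RA than in TSA and none higher (limma). Of all genes, 2.79% were lower and 2.21% higher. Nefh, the heavy neurofilament subunit, read 2.90, 4.46 and 2.67 in TSA and 0.834, 0.867 and 0.529 in RA, with changes of 1.66 in TSA and -0.43 in RA. RA minus TSA for Nefh was -2.09 (limma adjusted p = 0.00346), which held in 9 of 9 fits without 1 array, while its rise in TSA was lost without vehicle replicate 2. Nefl, the light subunit, was at -1.18 in RA and 0.37 in TSA and differed between the treatments by -1.55 (adjusted p = 0.0188, limma). Nefm, the medium subunit, was at -0.24 and 1.86, and Vim, a filament protein of the same class as peripherin, at 0.01 and 0.12; neither passed. Krt19, an epithelial keratin, rose by 1.70 in TSA, but its probe sets gave 3.83 and -0.44, and the call was lost without TSA replicates 2 or 3.

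Of 27 measured neuronal genes, Syt1, a synaptic vesicle calcium sensor, rose in both treatments, by 1.51 in RA and 1.77 in TSA, and Mapt, which encodes tau, rose by 2.06 in TSA. Medians of the list were -0.25 and -0.04. Between RA and TSA, 1 gene of the list was called higher in RA and 3 lower (limma), where 2.21% and 2.79% of all genes were. The RA call of Syt1 held in 5 of 9 fits without 1 array (not without vehicle replicate 2 or any 1 of the RA arrays), and its TSA call and that of Mapt in 9 of 9. The 3 probe sets of Mapt gave 3.95, 1.47 and 0.75 in TSA. RA minus TSA was -1.96 for Mapt (limma adjusted p = 0.00413) and -0.26 for Syt1 (0.653, same test). Of 10 defining neuron markers, 1 rose in RA (Syt1) and 2 in TSA (Syt1 and Mapt), where 1.19% and 2.71% of all genes rose. Their median changes were -0.07 in RA and 0.54 in TSA. Their summed ratio was 9.14 to 10.9 on vehicle arrays, 12.4 to 13.3 on RA arrays and 16.2 to 26.7 on TSA arrays, a sum that a few high members can set. The part of neuron-like cells in the Prph rise was not tested.

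Of 39 measured genes for chemokines, their receptors, arrestins and linked proteins, Ramp2 alone changed in RA, by -1.22, and none in TSA. Medians were -0.05 and -0.19. The Ramp2 call was lost in each of the 9 fits without 1 array. Ramp2, a partner of the receptor for adrenomedullin, differed between the treatments by -1.81 (limma adjusted p = 0.00413), which held in 9 of 9 of those fits. It was 1 of 2 genes of the list called lower in RA than in TSA, where 2.79% of all genes were. The ligand Cxcl12 gave discordant probe sets, at 1.43, -0.39 and -1.18 in RA and 1.15, -0.60 and -1.40 in TSA, with a gene average of -0.05 and -0.29. Cxcr4, the signalling receptor for Cxcl12, read 1.33, 1.92 and 1.60 in RA and 0.968, 2.31 and 0.532 in TSA against 1.10, 1.45 and 0.453 in vehicle, and its changes of 0.79 and 0.23 did not pass.

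Of 37 measured glycolysis and gluconeogenesis genes, Fbp2 rose in both treatments and 4 fell in TSA. The medians were -0.13 in RA and -0.35 in TSA. Pck2, the mitochondrial enzyme that makes phosphoenolpyruvate, read 0.310, 0.248 and 0.363 on the TSA arrays for 1 of its 2 probe sets, and its gene average changed by -1.40 in TSA and -0.28 in RA. The glycolytic enzymes Tpi1, Pgam1 and Pfkl changed by -1.17, -0.99 and -0.91 in TSA. Without 1 array, the call of Pck2 held in 9 of 9 fits, that of Tpi1 in 8 (not without TSA replicate 2), that of Pfkl in 4 and that of Pgam1 in 2. Pck1, the cytosolic enzyme of gluconeogenesis, was at -0.02 in RA and -0.08 in TSA, and Aldoa at -0.46 and -0.63, and neither passed.

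Some markers of other cell types moved beside the members; 1.19% of all genes rose in RA and 2.71% in TSA. Of 12 fibroblast and feeder markers, 4 rose in TSA and none in RA, with median changes of 0.49 and -0.06, and summed ratios of 7.82 to 17.6 on vehicle arrays, 12.4 to 14.3 in RA and 27.0 to 40.5 in TSA. Of 10 parietal endoderm markers, 3 rose in RA and 2 in TSA, with median changes of 0.63 and -0.16. Their summed ratios were 7.81 to 12.5 in vehicle, 17.4 to 20.3 in RA and 17.6 to 31.6 in TSA, of which Plat alone gave 8.01, 20.5 and 8.94 on the TSA arrays. Visceral endoderm had 1 of 9 higher in RA and none in TSA, with medians of 0.05 and -0.06. Trophoblast had 2 of 8 higher in TSA and none in RA, with medians of 0.20 and 0.21. Their part in the rises of the 4 genes was not tested.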

How the data were processed

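Per the labels, F9 RNA was DNase-treated, purified on columns and hybridised at a core facility; the vehicle samples' labels name GeneSpring. The authors deposited 1 linear ratio per probe set and array. Since the 3 vehicle arrays average 1 in every row, each deposited ratio is taken as relative to that row's vehicle mean. Brightness and further steps: not given in the sources used here.

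After leaving out 66 control probe sets, 12422 remained. The platform annotation, with symbols brought up to date by Entrez ID against RefSeq, named 1 gene for 10833 of them, more than 1 for 396 and no gene for 1193; for 16 the ID was missing from RefSeq's list. On log2(ratio + 0.05), limma (3.58.1, in R 4.3.3) was fitted once to the 9 arrays with no filter and no variance trend, by probe set and by gene (mean of its probe sets, 8251 genes). An adjusted p (Benjamini-Hochberg) under 0.05 counted as changed. The procedure was tested on simulated data. Sample titles gave the groups and replicate numbers. Precision is limited by 3 arrays a group.

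The members and lists were chosen with earlier results of these data known. Named genes were the members, the 3 genes closest to each, 5 measured neighbours on each side, and from the pathway lists those that changed, with a few partners. Genes named for RA against TSA came from the same sets. The 19 alternatives were pseudocounts of 0.01 and 0.1, centring, quantile normalisation, a 30% filter, a variance trend, fits on 6 arrays, a replicate block, omission of the pair of arrays highest in 18S, the median of probe sets, and omission of each array.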

Additional observations from a re-analysis of the deposited data

How the results depend on the processing

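The RA minus TSA differences of the 4 members and their 5 probe sets kept their sign in 166 of 166 fits over 19 alternatives, and none became significant. For the gene values limma adjusted p ran from 0.0512 to 0.496 for Calcoco2, 0.281 to 0.904 for Prph, 0.297 to 0.969 for Ackr3 and 0.126 to 0.675 for Fbp1. With 1 array left out, the differences ran from 1.15 to 1.71 for Calcoco2, 0.14 to 0.72 for Prph, 0.08 to 1.01 for Ackr3 and -1.45 to -0.41 for Fbp1. Quantile normalisation gave the lowest value for 8 of the 10 rises (5 probe sets, 2 treatments), among them Calcoco2 to 3.59 in RA and 2.51 in TSA, Prph 104751_at to 3.46 and 2.97, and Fbp1 in TSA to 2.73; it forces all arrays to 1 distribution. The Fbp1 rise in RA was lowest without RA replicate 1 (1.97), and that of Prph 161482_f_at in TSA without TSA replicate 2 (1.78).

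Counts of called probe sets depended on the processing. The RA count was 169, the TSA count 432 and the direct count (RA against TSA) 486; quantile normalisation gave 87, 108 and 152. For RA they were 111 with the variance trend and 98 when the pair of arrays highest in 18S was left out. The fits on the 6 arrays compared gave 61 for RA and 168 for TSA. Without 1 array they ran from 54 to 209, 107 to 494 and 167 to 624. Pathway genes called were 3 in RA and 11 in TSA; they were 6 in TSA after quantile normalisation, 1 and 7 in the fits on the 6 arrays, and 1 to 5 and 5 to 11 without 1 array. The causes were not tested, apart from fewer arrays where arrays were left out.

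With the replicate block, 5 pathway genes were called in RA, and RA minus TSA was 1.40, 0.38, 0.47 and -0.98 for Calcoco2, Prph, Ackr3 and Fbp1, with limma adjusted p of 0.149, 0.549, 0.689 and 0.257. The numbers were not taken to pair the samples: deviations of same-numbered arrays from their group means correlated from -0.0317 to 0.289 across probe sets, and not every array correlated best with its own number. Without a scale for brightness, dim and bright signals cannot be told apart.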
